A study of Mus musculus with 18 samples.

Results

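The 9 genes described here encode secreted ligands of the Wnt pathway that are known from the stroma and the lymphatic vessels of the gut: the Wnt ligands Wnt2, Wnt2b, Wnt4, Wnt5a, Wnt5b and Wnt9a and the R-spondins Rspo1, Rspo2 and Rspo3. They were taken by gene symbol, from a list chosen with earlier results of these data known. All 9 were among the 23238 distinct symbols of the count tables. RNA had been measured in 18 libraries from the small intestine of adult C57BL/6J mice. Cells were sorted by flow cytometry into PDGFRβ+ intestinal stromal cells (IntSCs), which carried the tdTomato reporter, and CD31+ podoplanin+ lymphatic endothelial cells (LECs). LECs line the lacteals of the villi and other lymphatic vessels, which the sort markers did not separate. There were 6 WT IntSC, 5 KO IntSC, 4 WT LEC and 3 KO LEC libraries. Per the labels, WT mice carried the PDGFRb-CreERT2 transgene and the Tomato reporter, and KO mice carried the same alleles together with floxed Lats1 and floxed Lats2, the kinases that restrain the co-activators YAP and TAZ. The Cre recombinase was switched on by tamoxifen given into the peritoneum. Because the Pdgfrb promoter is active in fibroblasts, pericytes and some smooth muscle cells, the deletion was directed to stromal cells, and LECs were sorted by CD31 and podoplanin and not by the reporter. The study describes its WT mice in general as Cre-negative littermates, but for the sorted cells it names reporter mice with the Cre as controls, as the labels do. Its legends give numbers of mice per group that match the numbers of libraries and come from several experiments, whereas the labels tie no library to a mouse or an experiment, so that experiments could not be compared as batches and p-values measure the spread between these libraries.

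Wnt ligands are lipid-modified proteins that need the carrier Wls to leave the cell and that bind Frizzled receptors, together with LRP5 or LRP6 to stabilise β-catenin, or together with Ror and Ryk receptors to signal without it. R-spondins bind Lgr receptors and the ubiquitin ligases Rnf43 and Znrf3, which otherwise remove Frizzled receptors from the membrane, and so make a cell more sensitive to Wnt. In the intestine, the stem cells at the base of the crypts depend on both kinds of ligand, and fibroblasts around the crypts, as well as lymphatic vessels near them, are known sources.

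Values are CPM, read counts scaled to library size with TMM factors over the 18 libraries. Each library was made from the 3′ ends of transcripts and held 5361250 to 10549233 counts, so that 3 reads stood for 0.281 to 0.621 CPM; intervals and floors cover counting error only. The share of ribosomal RNA precursor (Rn45s) was 11.6 to 24.4% in IntSC and 7.02 to 12.4% in LEC libraries. The 7 LEC markers (Prox1, Lyve1 and others) summed to 8177 to 14980 CPM in LEC and 199.5 to 426 CPM in IntSC libraries, and the 6 general stromal markers (Pdgfrb, Col1a1 and others) to 6419 to 14470 CPM in IntSC libraries. The same stromal markers summed to 279 to 610 CPM in 6 LEC libraries and to 1914 CPM in WT LEC 1, which stands apart, and none of the 6 was at 0 in any LEC library. Lats1 was at 0 to 29.9 CPM in WT IntSC and 12.5 to 21.6 CPM in KO IntSC libraries, and Lats2 at 40.8 to 112.5 and 78.4 to 133 CPM. A transcript that has lost an internal exon is still counted at its 3′ end, so these levels do not check the deletion.

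The promoters are shown because the members fall into opposite patterns between both cell types, and because TEAD factors, the partners of YAP and TAZ, bind the letters GGAATG. RefSeq promoters (GRCm38.p6, the assembly also called mm10, which the submitters' processing notes name) were at hand for 6 members with 8 start sites. GGAATG, searched on both strands from 250 bases before to 50 after the start, occurred in 14.7% of all 32851 promoters of the table and in 1 of the 8, the second start of Wnt5b, where it began at position 14 counted from the start. CTTTGAT, the letters bound by TCF and LEF factors, occurred in 3.73% of all promoters and likewise in 1 of the 8, the third start of Wnt5b, 71 bases before it. The motifs do not overlap each other, and a match is a description of the sequence only. Below are the stretches outside annotated exons before the starts of Wnt2, which was higher in LECs (chr6:18030586-18030695, minus strand), of Rspo1, which was almost absent from them (chr4:124986180-124986400, plus strand), and the 250 bases before the third start of Wnt5b (chr6:119449387-119449636, minus strand). Each is written 5′ to 3′ on the strand of its gene, and capitals mark CTTTGAT.
Wnt2: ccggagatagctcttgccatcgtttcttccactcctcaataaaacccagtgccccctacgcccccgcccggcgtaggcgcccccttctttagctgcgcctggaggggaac
Rspo1: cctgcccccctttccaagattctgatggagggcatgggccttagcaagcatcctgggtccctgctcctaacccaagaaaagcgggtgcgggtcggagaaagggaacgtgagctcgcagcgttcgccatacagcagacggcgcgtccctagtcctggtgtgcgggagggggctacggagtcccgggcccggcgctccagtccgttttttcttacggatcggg
Wnt5b: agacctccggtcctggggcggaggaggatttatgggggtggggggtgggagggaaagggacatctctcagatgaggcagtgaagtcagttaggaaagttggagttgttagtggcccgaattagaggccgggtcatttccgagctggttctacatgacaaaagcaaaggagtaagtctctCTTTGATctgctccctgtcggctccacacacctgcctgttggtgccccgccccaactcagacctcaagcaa
Neither motif was found in the windows of Wnt2 and Rspo1. The study took the shorter GGAAT as the TEAD-binding sequence. It was not searched for here, and its share over all promoters was not counted. GGAAT does occur before the start of Wnt2, in the part that is not printed. Wnt5a, Rspo2 and Rspo3 had no entry.

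Wnt2, a ligand that activates β-catenin signalling (chr6:17985474-18032772), was found in LECs and hardly in IntSCs. It was at 317, 335, 280.3 and 300 CPM in the WT LEC libraries and at 116, 139 and 74.9 CPM in the KO LEC libraries. In WT IntSC libraries it ranged from 0.130 to 3.23 CPM with a median of 1.14 CPM, and in KO IntSC libraries it was at 0, 2.55, 0.595, 1.07 and 0.516 CPM. All LEC libraries lay above all IntSC libraries. The log2 difference of WT LEC against WT IntSC was 7.68 ± 0.62 (SE), with an edgeR adjusted p of 6.76e-07, and that of KO LEC against KO IntSC was 6.77 ± 0.90, with an edgeR adjusted p of 0.000413.

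Within LECs, all 3 KO libraries lay below all 4 WT libraries for Wnt2, with means of 109.9 ± 32.3 (SD, n = 3) and 308 ± 23.4 CPM (SD, n = 4). KO against WT gave -1.48 ± 0.30 on the log2 scale, a level 2.79-fold lower, with p values from edgeR of 0.000255 before and 0.118 after adjustment over 10639 genes, so it did not pass the test. The call depended on the method, since DESeq2 gave an adjusted p of 0.000719, edgeR with no filter beyond 1 read 0.0412, and a fit of all 4 groups together 0.250. In the 7 fits that each left out 1 library, the log2 fold change stayed between -1.67 and -1.26 and the adjusted p between 0.111 and 0.303. The summed LEC markers were 8177 to 11950 CPM in WT LEC and 9497 to 14980 CPM in KO LEC libraries. The blood endothelial markers (5 genes, Flt1, Emcn and others) summed to 515 to 688 CPM in WT LEC and 426 to 448 CPM in KO LEC libraries, with at most 1 of them at 0 in a LEC library. The same list summed to 155 to 302.5 CPM in WT IntSC and 175 to 472 CPM in KO IntSC libraries. Of the 5 markers, 2 were called higher in WT LECs than in WT IntSCs (22.6% of all genes were called), with a median log2 difference of -0.29. The part of these markers in the Wnt2 difference was not tested. The order of the Wnt2 means was WT LEC, KO LEC, WT IntSC and KO IntSC. Among its neighbours, WT and KO LEC did not differ past the threshold, and KO LEC against WT IntSC was not compared. In IntSCs the gene had too few reads to be tested.

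Wnt2b, another β-catenin-activating ligand, made by fibroblasts around the crypts (chr3:104944805-104961709, overlapping St7l), had the reverse pattern. In WT IntSC libraries it ranged from 133 to 221 CPM with a median of 193 CPM, and in KO IntSC libraries it was at 149, 58.5, 108.5, 202 and 73.2 CPM. In LECs it was at 26.1, 5.29, 1.87 and 0 CPM in the WT libraries and at 0, 0.109 and 0 CPM in the KO libraries. The highest LEC value was that of WT LEC 1, the library with the most stromal marker RNA, which held 81.3% of the 337 Wnt2b reads of its group. WT LEC differed from WT IntSC in log2 level by -4.45 ± 0.95 (adjusted p = 0.00359), and by -6.28 without WT LEC 1. KO LECs held 1 read against 4382 in KO IntSCs, a level 2766-fold lower with a 95% counting interval of 496 to 109300 (edgeR adjusted p = 1.33e-05).

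Between genotypes, Wnt2b was at 118 ± 58.4 CPM in KO IntSC (SD, n = 5) and 181 ± 38.2 CPM in WT IntSC libraries (SD, n = 6). Of the 5 KO libraries 3 lay below all WT libraries and the others within their range. On the log2 scale KO differed by -0.63 ± 0.27, with an unadjusted edgeR p of 0.0290 and an adjusted p of 0.405. In LECs the single KO read against 337 WT reads gave a level 204-fold lower with a counting interval of 36.4 to 8093, which covers counting error only, and WT LEC 4 was itself at 0. This difference did not pass the test (edgeR adjusted p = 0.567), although a fit of all 4 groups together gave 0.0215. The stromal markers also had a lower median sum in KO than in WT LEC libraries, at 279 to 540 against 531 to 1914 CPM. The same held for the telocyte markers (0.389 to 4.92 against 4.55 to 43.6 CPM), and both ranges overlapped slightly. Of the 6 telocyte markers, 4 to 5 were at 0 in each KO and 1 to 3 in each WT LEC library. Between LEC genotypes 2 of them were tested and 0 called, where 0.0658% of all genes were called. The trophocyte markers summed lower in KO (182 to 240 against 272 to 462 CPM). Of the trophocyte markers, 4 were tested between LEC genotypes and 1 was called lower, with a median log2 fold change of -0.01. In that list 1 marker was called higher in LECs than in IntSCs of both genotypes, so its sum is not stromal RNA alone. The villus fibroblast markers (6 genes, Serpina3n, Shisa3 and others) overlapped between genotypes with the higher median in KO LECs (170.4 to 240.1 CPM, median 225, against 22.4 to 186 CPM, median 117). The part of these lists in the Wnt2b difference was not tested.

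Wnt5a, which signals mainly without β-catenin and is made by telocytes under the epithelium (chr14:28504543-28527448), had the smallest log2 difference between IntSC genotypes of the 8 members tested. It ranged from 23.8 to 52.1 CPM with a median of 39.9 CPM in WT IntSC, and stood at 27.2, 36.5, 27, 41.4 and 48.3 CPM in KO IntSC libraries, with every KO value inside the WT range. KO differed from WT by -0.13 ± 0.28 on the log2 scale (adjusted p = 0.967). In LECs it was at 11.9, 1.35, 0.0935 and 0.0994 CPM in the WT libraries and at 0, 0 and 0.130 CPM in the KO libraries. WT LEC 1 held 90.6% of the 138 reads of its group, as for Wnt2b. The gene was lower in LECs of both genotypes, with a log2 difference of -3.55 ± 1.07 in WT (adjusted p = 0.0265) and, with 1 KO LEC read, by 855-fold in KO libraries with a counting interval of 153 to 33780 (edgeR adjusted p = 0.000212). Without WT LEC 2 the WT difference missed the threshold (adjusted p = 0.0659), and without WT LEC 1 it was -6.28.

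Wnt4, a ligand used with and without β-catenin signalling (chr4:137277635-137299501), was found in IntSCs. It ranged from 19.2 to 87.6 CPM with a median of 32.9 CPM in WT IntSC, and was at 12.5, 11.1, 16.5, 56.8 and 6.32 CPM in KO IntSC libraries. Thus 4 of 5 KO libraries lay below all WT libraries, whereas KO IntSC 4 lay between the highest and the next WT library. KO differed from WT by -1.03 ± 0.52 on the log2 scale (adjusted p = 0.534), and without KO IntSC 4 it was -1.84, with an adjusted p of 0.0518. LEC libraries held 7 reads in WT and 8 in KO, at 0.855 CPM or less. The level was 240-fold lower in WT LEC than in WT IntSC, with a counting interval of 116 to 599 (edgeR adjusted p = 4.74e-05), and 58.4-fold lower in KO LEC than in KO IntSC, with an interval of 29.5 to 136 (edgeR adjusted p = 0.0179).

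Wnt5b, a relative of Wnt5a (chr6:119432531-119544824, overlapping Fbxl14, Gm30690, Gm40397 and Gm52875), was uneven within each group. It was at 0 to 6.45 CPM with a median of 1.93 CPM in WT IntSC libraries and at 7.18, 4.03, 5.35, 21 and 3.87 CPM in KO IntSC libraries. Of the 5 KO libraries 2 lay above all WT libraries (log2 fold change 1.77 ± 1.17, edgeR adjusted p = 0.722). Among LECs all 109 WT reads came from WT LEC 2, at 13.4 CPM, and all 137 KO reads from KO LEC 1, at 19.5 CPM, with 0 reads in the other 5 libraries. No direction between cell types can be read from these values, and the log2 difference changed sign with the library left out.

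Wnt9a (chr11:59306849-59333552, overlapping Gm51865) was present in both cell types. It ranged from 4.01 to 24.3 CPM with a median of 14.6 CPM in WT IntSC and was at 36.8, 17.6, 21.2, 14.5 and 20.5 CPM in KO IntSC libraries. It was at 7.32, 26, 0.187 and 13.3 CPM in WT LEC and at 0.997, 8.96 and 18.7 CPM in KO LEC libraries, so all 4 groups overlapped. None of the comparisons passed the test, and the edgeR adjusted p was 0.809 for KO against WT IntSC and 0.861 for WT LEC against WT IntSC.

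**Figure D1:**
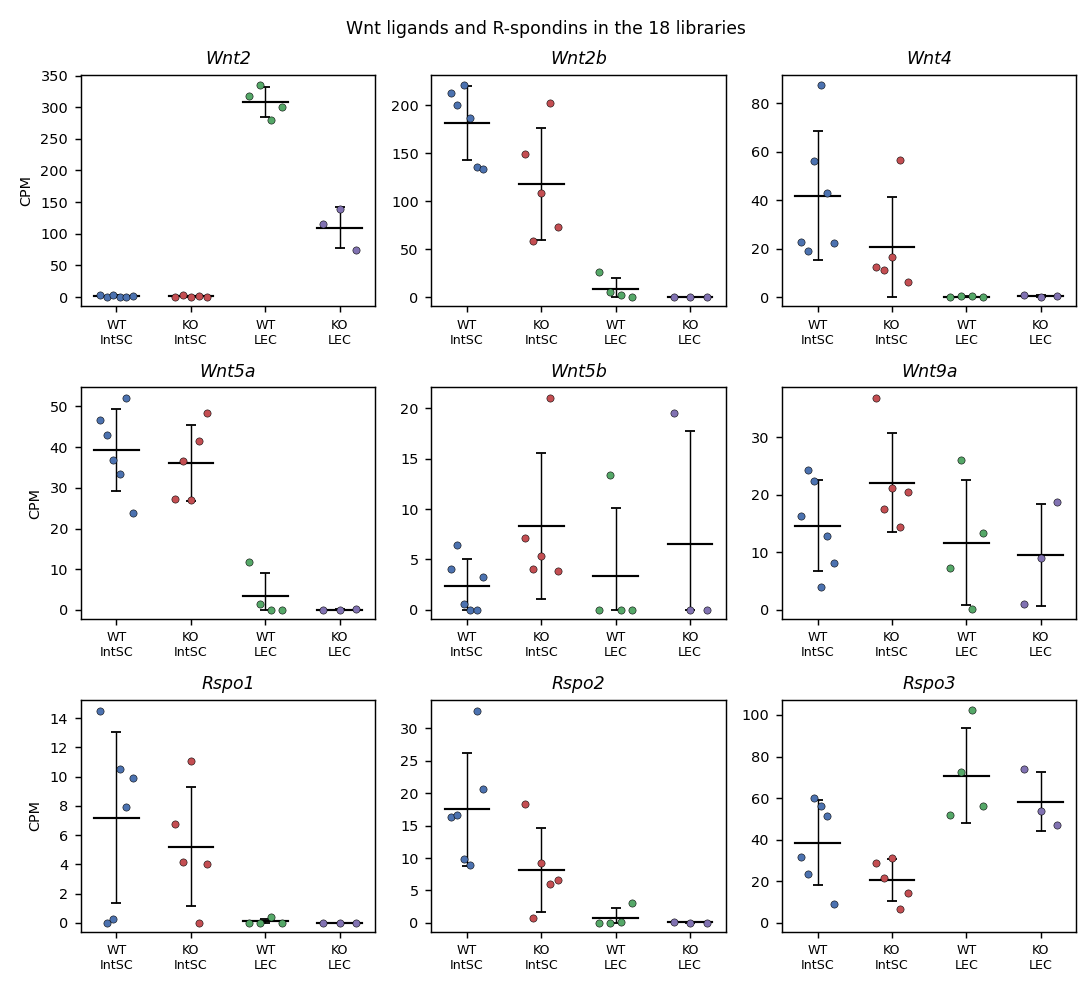
CPM (linear vertical axis) of the 9 members in each library of the 4 groups, with 1 point per library, a line at the mean and bars of 1 SD cut at 0. Wnt2 lies at 74.9 to 335 CPM in the LEC libraries and at 3.23 CPM or less in the IntSC libraries, Wnt2b, Wnt4, Wnt5a, Rspo1 and Rspo2 have the higher means in IntSCs, and Rspo3 is found in every library.

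The R-spondins were not distributed alike. Rspo3 (chr10:29453106-29535867), the R-spondin known from lymphatic vessels, was found in every library. In WT IntSC libraries it ranged from 8.9 to 60 CPM with a median of 41.3 CPM, and in KO IntSC libraries it was at 29, 21.7, 31.3, 6.7 and 14.2 CPM. In LECs it was at 52.1, 72.5, 102.3 and 56 CPM in WT and at 74.2, 53.8 and 47.1 CPM in KO libraries.

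The order of the Rspo3 means was WT LEC, KO LEC, WT IntSC and KO IntSC, at 70.7 ± 22.8 (SD, n = 4), 58.4 ± 14.2 (n = 3), 38.5 ± 20.5 (n = 6) and 20.6 ± 10.3 CPM (n = 5). Neither genotype comparison passed the threshold, and KO LEC against WT IntSC was not compared. On the log2 scale KO IntSC differed from WT IntSC by -0.90 ± 0.45 (adjusted p = 0.532), and 1 of 5 KO libraries lay below all WT libraries. KO against WT LEC gave -0.27 ± 0.46 (adjusted p = 0.9999). All 3 KO LEC libraries lay above all 5 KO IntSC libraries, with a log2 difference of 1.43 ± 0.54 that missed the threshold in edgeR (adjusted p = 0.0761) and passed it in DESeq2 (adjusted p = 0.0378). In WT libraries the cell types overlapped (log2 difference 0.87 ± 0.45, edgeR adjusted p = 0.195).

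Rspo2 (chr15:43020788-43171594) and Rspo1 (chr4:124986401-125009102, overlapping Gm12930) were found in IntSCs and were nearly absent from LECs. Rspo2 ranged from 8.86 to 32.7 CPM with a median of 16.5 CPM in WT IntSC and was at 18.4, 0.671, 9.28, 5.94 and 6.57 CPM in KO IntSC libraries. In LECs it was at 0, 0, 0.0935 and 2.98 CPM in WT and at 0.143, 0 and 0 CPM in KO libraries. Of the 31 WT LEC reads 30 came from WT LEC 4. Rspo2 was lower in LECs of both genotypes, with a log2 difference of -4.48 ± 1.45 in WT (adjusted p = 0.0357) and, with 1 read in KO LECs, by 198-fold in KO libraries with a counting interval of 35.3 to 7852 (edgeR adjusted p = 0.0206). The WT call was lost in 7 of the 10 fits that left out 1 library (WT IntSC 1, 2, 5 and 6 and WT LEC 1, 2 and 3), with adjusted p up to 0.0902, and without WT LEC 4 the difference was -8.46.

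Between IntSC genotypes 3 of 5 KO libraries lay below all WT libraries for Rspo2 (log2 fold change -1.10 ± 0.63, edgeR adjusted p = 0.629). Rspo1 was at 0 to 14.5 CPM with a median of 8.93 CPM in WT IntSC and at 6.79, 4.16, 11.1, 0 and 4 CPM in KO IntSC libraries, with 0 in 1 library of each genotype. KO differed from WT by -0.46 ± 1.15 on the log2 scale (adjusted p = 0.971). LECs held 4 Rspo1 reads in WT, all in WT LEC 3, and 0 in KO, so that the level in KO LECs was at least 43.6-fold lower than in KO IntSCs, taken against 3 reads over the group (edgeR adjusted p = 0.0381). This call held in 1 of the 8 fits without 1 library, that without KO IntSC 4; in the other 7, each without 1 of KO IntSC 1, 2, 3 and 5 and KO LEC 1, 2 and 3, the adjusted p was 0.0642 to 0.0672. In WT libraries the level was 69.3-fold lower, with a counting interval of 26.8 to 256, and missed the threshold in edgeR (adjusted p = 0.0526) but not in DESeq2 (adjusted p = 0.00184).

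Counted over the members, the cell type comparisons gave most of the calls. Between WT LEC and WT IntSC, 5 of 9 members passed the edgeR test, 1 higher (Wnt2) and 4 lower (Wnt2b, Wnt4, Wnt5a and Rspo2), where 22.6% of all 12203 genes tested passed. The same 5 members had groups that did not overlap, against 21.1% of all genes. The median log2 difference over the 9 members was -3.55, and that over all genes was -0.04. Between KO LEC and KO IntSC, 6 of 9 passed, namely Wnt2 higher and Wnt2b, Wnt4, Wnt5a, Rspo1 and Rspo2 lower, against 25.9% of 12758 genes. Groups did not overlap for 6 members (Wnt2 and Rspo3 higher, Wnt2b, Wnt4, Wnt5a and Rspo2 lower), against 32.2% of all genes, and the medians were -5.81 over the members and -0.21 over all genes. Leaving out 1 library moved other called differences by more than 1.5 times without ending the call. In WT, Wnt4 was at -8.88 without WT LEC 3. In KO, Wnt2 was at 7.56 without KO IntSC 2, Wnt2b at -12.8 without KO LEC 2, Wnt5a at -11.1 without KO LEC 3, Rspo2 at -9.03 without KO LEC 1, and Wnt4 at -7.27, -5.22 and -5.002 without KO LEC 1, KO LEC 2 and KO IntSC 4. In bulk samples, fewer cells of a type and less RNA per cell cannot be told apart.

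No member passed the test between genotypes. In IntSCs 8 members had enough reads and 0 passed, against 1.47% of 12421 genes. An unadjusted p under 0.05 was found for 1 member, Wnt2b, against 9.81% of all genes, and DESeq2 called 0 members against 3.15% of all genes. No member had genotype groups that did not overlap, against 2.82% of all genes. The log2 fold change was below 0 for 6 and above 0 for 2 of the 8, and its median was -0.55 over the members and 0.00 over all genes. In LECs 4 members were tested and 0 passed in edgeR, against 0.0658% of 10639 genes. An unadjusted p under 0.05 was found for 2 members, Wnt2 and Wnt2b, against 7.87% of all genes, and DESeq2 called 1 member, Wnt2, against 2.98% of all genes. Groups did not overlap for 1 member, Wnt2, against 9.81% of all genes.

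Marker lists, none of which holds a member, are given beside these values. In IntSCs the general stromal markers summed to 9424 to 14470 CPM in WT and 6419 to 11180 CPM in KO libraries, the telocyte markers (6 genes, Pdgfra, Foxl1 and others) to 336 to 699.7 and 357 to 502 CPM, and the trophocyte markers (5 genes, Ackr4, Grem1 and others) to 2047 to 2724 and 1672 to 3110 CPM. The 6 Paneth cell markers (Lyz1, Defa24 and others), which belong to epithelial cells of the crypt, summed to 0.674 to 36.8 CPM in WT and 87.8 to 178 CPM in KO IntSC libraries, and to 0.596 to 21.1 and 41.1 to 379 CPM in WT and KO LEC libraries. The stromal, telocyte and trophocyte sums overlapped between IntSC genotypes, and the Paneth cell sums did not. Marker by marker, 1 of 6 general stromal and 1 of 5 mural cell markers (Vtn, Rgs5 and others) were called lower in KO. Of all genes tested there, 1.47% were called. The median log2 fold changes of these 2 lists were -0.55 and -0.57. Medians were -0.43 for telocyte, 0.25 for trophocyte, -0.11 for villus fibroblast and 0.37 for smooth muscle markers, of which 0 were called. The part of these lists in the members' values was not tested.

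**Figure D2:**
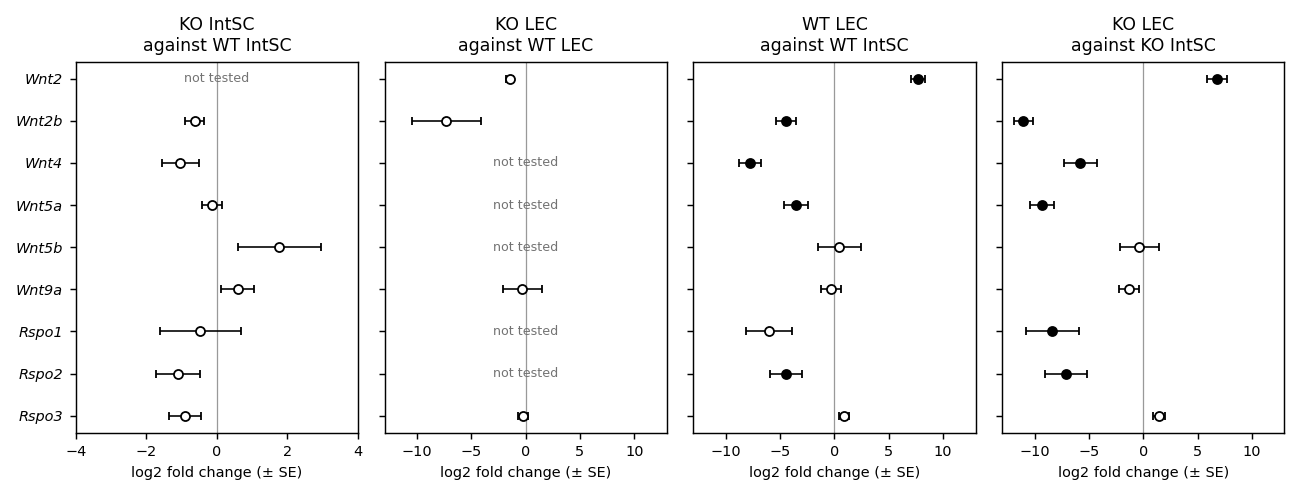
Log2 fold change with its SE (horizontal axis, narrower in the first panel) of each member in the 4 comparisons, from edgeR. Filled points have an adjusted p under 0.05, and "not tested" marks members with too few reads; filled points are found in the cell type comparisons only, 5 in WT and 6 in KO, and fitted values against groups with a few reads depend on the small count that edgeR adds.

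Whether the genotype difference itself differed between IntSCs and LECs was tested as an interaction, the log2 difference in IntSCs minus that in LECs. None of the 9 members passed in edgeR, where 1.7% of 14015 genes did, and 2 had an unadjusted p under 0.05, as did 15.8% of all genes. These were Wnt2b (6.59 ± 1.80, adjusted p = 0.0738) and Wnt5a (5.78 ± 1.63, adjusted p = 0.0690). Both passed in DESeq2, with adjusted p of 0.000868 and 0.0099, where 7.39% of all genes passed, and in edgeR without WT LEC 3 or without WT LEC 4. Both rest on LEC reads that came mostly from WT LEC 1. Without that library the values were 4.77 for Wnt2b, with an adjusted p of 0.0809, and 3.05 for Wnt5a, with an adjusted p of 0.227. For Wnt2 the interaction was 0.90 ± 1.004 (adjusted p = 0.816), so its lower LEC level in KO was not shown to differ from the change in IntSCs, where it was hardly detected.

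**Figure D3:**
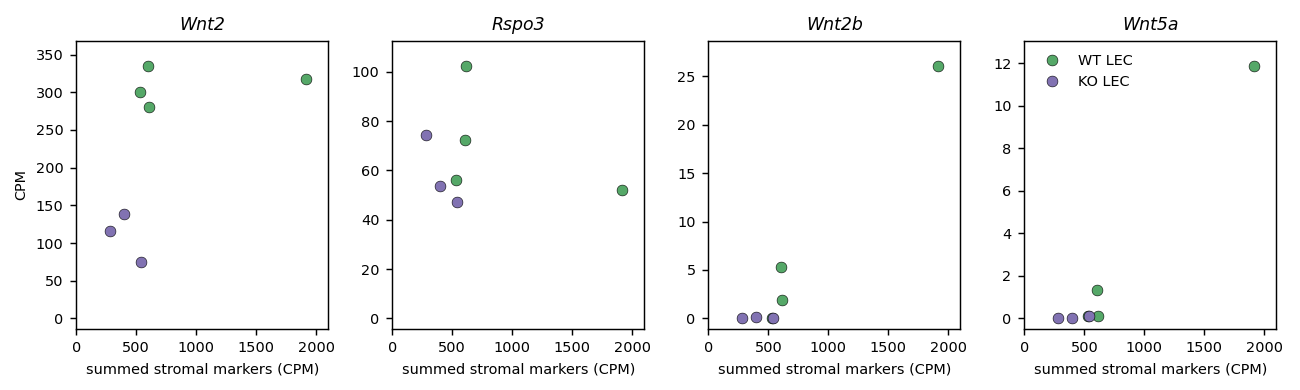
CPM of Wnt2, Rspo3, Wnt2b and Wnt5a (vertical axes) against the summed CPM of the 6 general stromal markers (horizontal axis) in the 4 WT LEC and 3 KO LEC libraries, 1 point each. WT LEC 1, at 1914 CPM of stromal markers, has the highest Wnt2b (26.1 CPM) and Wnt5a (11.9 CPM), whereas its Wnt2 (317 CPM) and Rspo3 (52.1 CPM) lie among or below those of the other WT LEC libraries.

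Among 55 other genes of the pathway (other ligands, receptors, antagonists, carriers and response genes), 29 were tested between IntSC genotypes. The receptor Fzd2 was the only one that passed. The 13 other Wnt ligands and Rspo4 were not among the 29 tested. Of all genes tested there, 1.47% passed. Fzd2 was at 134 to 183 CPM in WT IntSC libraries with a mean of 155 ± 19.8 (SD, n = 6), and at 368, 230.3, 294, 324 and 316 CPM in KO IntSC libraries. All 5 KO libraries lay above all WT libraries, and the log2 difference was 0.97 ± 0.17 (adjusted p = 0.00301 in edgeR). The call held in all 11 fits without 1 library, and a fit of all 4 groups together gave an adjusted p of 0.513. Of 16 pathway genes tested in LECs, 0 passed between genotypes in edgeR, where 0.0658% of all genes did. An unadjusted edgeR p under 0.05 was found for 2 (Fzd5 and Nkd1), against 7.87% of all genes. In DESeq2 1 passed (Fzd5), against 2.98% of all genes. The interaction passed in edgeR for 1 of 34 pathway genes, where 1.7% of all genes passed. This was the receptor Fzd5 (6.19 ± 1.38, edgeR adjusted p = 0.0190, and 9.52 without KO LEC 2). Fzd5 was at 5.7 to 16.5 CPM in WT LEC, 0 to 0.437 CPM in KO LEC, 9.03 to 44.7 CPM in WT IntSC and 16.2 to 27.1 CPM in KO IntSC libraries.

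Between cell types, 13 of 28 pathway genes tested passed in WT, 2 higher and 11 lower in LECs, where 22.6% of all genes passed. In KO 18 of 31 passed, 2 higher and 16 lower, where 25.9% of all genes did. The genes higher in LECs of both genotypes were Wnt9b, a ligand related to Wnt9a, and the receptor Fzd6. Wnt9b was at 25.7, 27.3, 27.1 and 14.1 CPM in WT LEC and at 112.8, 20.3 and 38.5 CPM in KO LEC libraries, and at 0.476 CPM or less in all 11 IntSC libraries. Its log2 difference was 8.04 ± 1.33 in WT (edgeR adjusted p = 0.000383), and 10.5 without WT IntSC 3, which held the WT IntSC reads. Fzd6 was higher by 3.35 ± 1.05 in WT (edgeR adjusted p = 0.0302), a call lost in 5 of the 10 fits without 1 library.

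All 5 genes tested from the list of secreted antagonists, Sfrp1, Frzb, Wif1, Dkk2 and Dkk3, were lower in LECs of both genotypes. Sfrp1, for example, ranged from 1157 to 1912 CPM in WT IntSC and from 42 to 262 CPM in WT LEC libraries (log2 difference -3.90 ± 0.50, edgeR adjusted p = 5.42e-05, and -4.91 without WT LEC 1). Between IntSC genotypes, Sfrp1 (595 to 1271 CPM in KO) and Frzb (82.6 to 223 CPM in WT and 200.5 to 345 CPM in KO) had adjusted p of 0.0528 and 0.0649 and did not pass. Wls, the carrier of all Wnt ligands, was at 100.6 to 140.1 CPM in WT IntSC, 122 to 150.5 CPM in KO IntSC, 112 to 167 CPM in WT LEC and 96.4 to 188 CPM in KO LEC libraries, and no comparison of it passed.

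**Figure D4:**
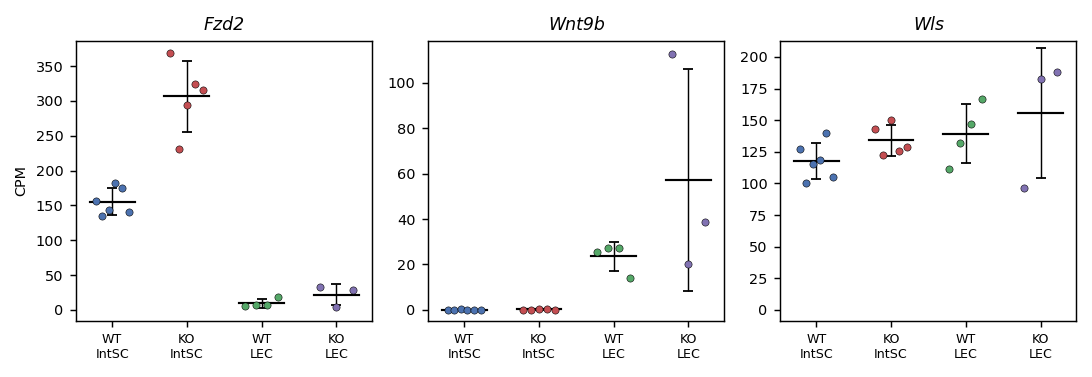
CPM (linear vertical axis) of the receptor Fzd2, the ligand Wnt9b and the carrier Wls in each library of the 4 groups, with 1 point per library, a line at the mean and bars of 1 SD cut at 0. All KO IntSC libraries lie above all WT IntSC libraries for Fzd2, Wnt9b is above 14 CPM in LEC libraries only, and the groups overlap for Wls.

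Across the 11 IntSC libraries, the genes whose log2(CPM + 1) followed each member most closely were listed as a description, among 10544 genes with at least 5 CPM on average. Wnt2b was followed by Nkain1 (Pearson r = 0.907) and Snx12 (r = 0.895), Wnt4 by Mxra7 (r = 0.940) and Rtp4 (r = 0.903), and Wnt5a by Foxn3 (r = 0.835) and Tm9sf4 (r = 0.833). Wnt5b was followed by Mrto4 (r = 0.898) and Snx7 (r = 0.896), and Wnt9a by Arxes2 (r = 0.922) and Parp12 (r = 0.881). Of the R-spondins, Rspo1 was followed by Fgf9 (r = 0.942) and Cnnm2 (r = 0.938), Rspo2 by Serf1 (r = 0.904) and Ttll12 (r = 0.900), and Rspo3 by Zfp639 (r = 0.921) and Msl3l2 (r = 0.918). These points share 11 libraries of both genotypes, and the highest of 10544 values of r is high by selection.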

How the data were processed

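Small intestinal IntSCs and LECs were sorted from WT and KO mice and sequenced with the QuantSeq 3′ protocol on an Illumina NextSeq. The study's methods name TopHat and Cufflinks; the submitters' processing notes name Bowtie2, edgeR and mm10. The counting program, its annotation and its use of strand are not given in the sources used here, so reads of overlapping genes cannot be told apart. These overlaps are Wnt2b with St7l, Wnt5b with Fbxl14, Gm30690, Gm40397 and Gm52875, Wnt9a with Gm51865, and Rspo1 with Gm12930. Per library, the authors deposited a table of raw, whole-number counts with 23282 rows; the counts of 35 symbols that stood on more than 1 row were summed.

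Groups came from the sample titles. The test was that of edgeR 4.0.16 under R 4.3.3 (TMM, filterByExpr, robust quasi-likelihood fit, Benjamini-Hochberg adjustment over all genes tested, threshold 0.05) on the groups compared. Script tests on simulated data recovered known fold changes on average in well-expressed genes. They did not cover differences against groups with few or no reads. SEs came from the quasi-likelihood F statistic. Ratios against groups with few reads have exact 95% intervals for counting error. Pathway genes were named where they passed, at most 4 per list and comparison, in order of p, and the 2 most correlated genes per member at a mean of at least 5 CPM; not every gene so eligible is described. Alternatives were RLE factors, DESeq2 1.42.0, other filters, no Rn45s, a replicate block, one fit of the 4 groups, and leaving out each library. The members and lists were chosen with earlier results of these data known. Gene coordinates are those of RefSeq for GRCm38.p6, and exons those of GENCODE vM21.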

Additional observations from a re-analysis of the deposited data

Results flagged for a closer look

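In 23 sets of values (a member in a group of 4 to 6 libraries with a mean of at least 1 CPM), 4 libraries lay farther from the rest of their group than Dixon's 95% limit allows, and chance flags about 1 set in 20. Wnt4 in KO IntSC 4 was at 56.79 CPM, with the next library at 16.54 CPM. Wnt5b in the same library was at 21.01 CPM, with the next at 7.179 CPM. Wnt5a in WT LEC 1 was at 11.88 CPM and the next library at 1.353 CPM, and that library also held the most stromal marker RNA of the LEC libraries (1914 CPM), whose part was not tested. Wnt5b in WT LEC 2 was at 13.41 CPM, with 0 in the other 3 libraries. KO LEC, with 3 libraries, was not examined in this way.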

How the results depend on the processing

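Of 176 recomputed counts of genes or members, 143 stayed within 1.5 times the reported count, and of 1162 recomputed log2 fold changes of named genes 1079 kept direction and side of the threshold, 56 lost their call, 16 gained one and 11 reversed. The cause of each change was not tested.

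Of all genes in KO against WT IntSC, 183 were called, and 376 with DESeq2 and 27 in a fit of all 4 groups; in KO against WT LEC 7 were called, and 309 with DESeq2, 32 with no filter beyond 1 read, 20 with a mean count of at least 10 and 538 in a fit of all 4 groups; for the interaction 238 were called, and 1023 with DESeq2. Members called in KO against WT LEC rose from 0 to 1 with DESeq2 and 1 with no filter (Wnt2 in both), and to 2 in the fit of all 4 groups (Wnt2b and Wnt5a). For the interaction DESeq2 called 2 members (Wnt2b and Wnt5a).

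The titles do not say whether a replicate number marks a shared mouse or day, and the main tests took the libraries as unpaired. Same-numbered libraries had correlations of their deviations between -0.0612 and 0.0802, none above 0.1. Between WT LEC and WT IntSC, however, the best match across cell types carried the same number in 4 of 4 pairs, at correlations of 0.0234 to 0.0448. The mean was 0.036 for the same number and -0.0072 for different numbers, so whether these WT libraries were paired was not settled. The replicate block left out libraries without a same-numbered partner, so its counts come from fewer libraries and do not show the block alone. Under a replicate block the calls over all genes came to 120 in KO against WT IntSC, 1 in KO against WT LEC, 1626 in WT LEC against WT IntSC (2763 without the block), 937 in KO LEC against KO IntSC (3302) and 14 for the interaction. Members called under the block fell from 6 to 3 in KO LEC against KO IntSC (Wnt2, Wnt2b and Wnt5a) and from 5 to 4 in WT LEC against WT IntSC, where Rspo2 was lost (-6.88, adjusted p = 0.126), and Rspo1 in KO against WT IntSC reversed to 0.307.

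With 1 library left out, genes called ranged from 99 to 186 in KO against WT IntSC (fewest without KO IntSC 3), from 0 (without WT LEC 3) to 16 (without KO LEC 2) in KO against WT LEC and from 161 to 461 for the interaction (most without KO LEC 2). Members called ranged from 3 (without WT LEC 2) to 6 in WT LEC against WT IntSC and from 0 to 2 for the interaction. Log2 differences that changed sign were Wnt9a in KO against WT LEC (-1.23 to 0.47) and in WT LEC against WT IntSC (-1.10 to 0.071), Wnt5b in WT LEC against WT IntSC (-7.24 to 0.87) and KO LEC against KO IntSC (-9.03 to 0.29), and for the interaction Wnt5b (-6.87 to 9.46), Rspo1 (-0.47 to 2.67) and Rspo2 (-1.36 to 4.53). In LECs most libraries held 3 reads or fewer of Wnt4, Rspo1 and Rspo2, so levels there cannot be told from 0 at this depth; the exceptions were Wnt4 in WT LEC 3 (5 reads) and KO LEC 1 (6 reads), Rspo1 in WT LEC 3 (4 reads) and Rspo2 in WT LEC 4 (30 reads).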
